A study of Mus musculus and Homo sapiens with 16 samples.

Results

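The 7 keratins of interfollicular epidermis described here are Krt5, Krt14 and Krt15, which are made in the basal layer, and Krt1, Krt10, Krt2 and Krt77, which are made in the layers above it. They were taken by gene symbol from the 39179 genes of the count tables, which hold 51 genes whose symbol is Krt followed by a number, and all 7 were found. Keratins assemble as pairs of a type II and a type I chain into the intermediate filaments that give the epidermis its mechanical strength. Basal cells, which divide and touch the basement membrane, build filaments from KRT5 and KRT14, with KRT15 as a further basal type I chain. When a cell leaves the basal layer it turns on KRT1 and KRT10, the pair of the spinous cell, while KRT2 and KRT77 are type II chains of differentiated cells, KRT2 typical of the upper layers and KRT77 known also from sweat gland ducts.

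RNA was measured in 10 libraries of C57BL/6 mouse skin epithelium. The E17.5 set had 3 libraries labelled Klf5+/- and 3 labelled Klf5-/-, made from embryonic epidermis that was digested and sorted for DAPI-negative, CD45-negative cells bearing integrin alpha 6, a laminin receptor of basal cells. A further set, titled HFD, had 2 libraries of each genotype from epidermis ground without sorting. The labels neither spell out HFD nor give a stage for it, and they give no Cre driver or deleted exon, so both genotypes are known only as heterozygous or homozygous. Each Klf5+/- group carries 1 mutant copy itself, so no RNA library is wild type. Chromatin came from 1 sorted E17.5 sample for each of 3 assays, with wild type as the genotype label: ChIP-seq (chromatin immunoprecipitation) of KLF5, an epithelial transcription factor with zinc fingers, ChIP-seq of H3K27ac, a histone mark of active promoters and enhancers, and ATAC-seq, which maps open chromatin. The ATAC title says Het instead. The labels do not tie replicates to different animals, and the spread behind each p-value is that between libraries, part of which may be technical.

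The label Klf5-/- did not go with less Klf5 RNA, so groups are named by their labels. Its level was 180.6 CPM (counts scaled to library size) in Klf5+/- and 182.6 CPM in Klf5-/- at E17.5 (log2 fold change 0.015, edgeR adjusted p = 0.982), and 52.8 against 110 CPM in the HFD set (log2 fold change 1.06, edgeR adjusted p = 0.0533). In 1 fit of all 10 libraries, the Klf5 effect in the HFD set minus that at E17.5 was 1.06 (SE 0.24, edgeR adjusted p = 0.0159). It was called higher, as were 7.07% of the 17260 genes tested. The count files do not show whether a deleted part lies outside the counted exons. The libraries held 31819010 to 46445546 counts on genes, and 3 counts corresponded to 0.0646 to 0.0943 CPM, so sampling error was small for every keratin except Krt2.

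The 7 genes lie in the 2 keratin clusters of the mouse genome (mm10), all on the minus strand. The type II genes are on chromosome 15, with Krt5 (ENSMUSG00000061527) at 101707070 to 101712891, Krt2 (ENSMUSG00000064201) at 101810689 to 101818169, Krt1 (ENSMUSG00000046834) at 101845428 to 101850786 and Krt77 (ENSMUSG00000067594) at 101858732 to 101869705. The type I genes are on chromosome 11, with Krt10 (ENSMUSG00000019761) at 99385254 to 99389364, Krt15 (ENSMUSG00000054146) at 100131758 to 100135928 and Krt14 (ENSMUSG00000045545) at 100203162 to 100207548. Krt10 alone overlaps another annotated gene, Gm11940 on the other strand, which held at most 91 counts in any library.

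The 250 bases before the gene start are shown for 4 of the keratins, to set beside the peaks and the RNA: a KLF5 peak covers the start of Krt5, whereas Krt10, Krt2 and Krt77 have none within 5 kb, and Krt2 at E17.5 and Krt77 in the HFD set passed the test between genotypes. All are from RefSeq (GRCm38.p6), on the minus strand, written 5′ to 3′ along the gene. They precede the transcript starts that match the count files to within 14 bases, while RefSeq's gene models of Krt10 and Krt2 begin 8085 and 787 bases farther upstream. The Krt5 stretch is chr15:101712906-101713155, and its capitals mark the 162 bases that lie inside the KLF5 peak. In the others, at chr11:99389365-99389614 for Krt10, chr15:101818170-101818419 for Krt2 and chr15:101869706-101869955 for Krt77, capitals mark matches to the motifs named next.
Krt5: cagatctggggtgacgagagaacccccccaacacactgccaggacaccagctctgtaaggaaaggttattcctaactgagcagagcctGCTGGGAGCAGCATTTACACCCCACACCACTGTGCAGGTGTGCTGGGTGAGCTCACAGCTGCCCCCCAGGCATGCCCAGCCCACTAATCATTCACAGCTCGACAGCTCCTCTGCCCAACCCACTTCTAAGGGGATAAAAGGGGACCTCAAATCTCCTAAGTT
Krt10: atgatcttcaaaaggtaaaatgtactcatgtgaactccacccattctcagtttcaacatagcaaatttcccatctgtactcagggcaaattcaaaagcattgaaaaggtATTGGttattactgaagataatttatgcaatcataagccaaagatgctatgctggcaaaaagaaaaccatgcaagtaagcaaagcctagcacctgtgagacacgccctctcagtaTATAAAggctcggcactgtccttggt
Krt2: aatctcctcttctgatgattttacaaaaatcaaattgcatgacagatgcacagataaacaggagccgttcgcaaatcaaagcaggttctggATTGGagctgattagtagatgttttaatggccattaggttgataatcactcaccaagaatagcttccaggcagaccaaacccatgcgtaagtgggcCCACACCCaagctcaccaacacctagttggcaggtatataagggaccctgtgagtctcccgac
Krt77: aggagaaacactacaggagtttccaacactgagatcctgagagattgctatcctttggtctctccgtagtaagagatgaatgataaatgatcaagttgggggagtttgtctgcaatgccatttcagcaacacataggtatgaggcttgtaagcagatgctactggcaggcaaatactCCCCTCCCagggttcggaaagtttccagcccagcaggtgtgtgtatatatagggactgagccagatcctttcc
The motifs searched on both strands, in the 300 bases from 250 before to 50 after the start, were the KLF-type CCNCNCCC, the GC box GGGCGG, the TATA box TATAAA, the AP-1-type TGANTCA and the CCAAT box CCAAT. Krt10 holds TATAAA at 26 bases before its start and CCAAT, read as ATTGG, at 141 bases. In Krt2 the KLF-type match CCACACCC begins 63 bases before the start, with ATTGG at 159 bases, and in Krt77 the match CCCCTCCC begins 73 bases before it. Krt5 holds no match to any of the 5 motifs in this window, which describes these letters and not the factor. Of 32851 RefSeq promoters of the same length, 49.5% hold CCNCNCCC, 35.7% GGGCGG, 13.6% TATAAA, 7.81% TGANTCA and 37.4% CCAAT.

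Krt1 and Krt10 were the most abundant messages of the sorted E17.5 heterozygous epithelium. Levels per length are given as RPKM, reads per kilobase of exon, scaled to all counts on genes. Krt1 stood at 14424 ± 1619 and Krt10 at 12725 ± 1282 (mean ± SD, n = 3), and their ranges over the libraries overlapped. Krt5 followed at 6051 ± 601 RPKM, then Krt14 at 3831 ± 384 and Krt15 at 1544 ± 99 RPKM, and none of these 3 ranges touched a neighbour. Krt77 at 19.4 ± 2.52 RPKM and Krt2 at 0.575 ± 0.0474 RPKM were lower by orders of magnitude. In libraries labelled Klf5-/- the top 3 closed up, with Krt10 at 8360 ± 1662, Krt1 at 8212 ± 2009 and Krt5 at 7208 ± 1049 RPKM, ranges that all overlapped.

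Among HFD heterozygous libraries the leading chains lay closer together. Krt10 was at 4026 ± 449 RPKM (SD, n = 2), Krt1 at 2973 ± 332, Krt14 at 2820 ± 566 and Krt5 at 2728 ± 1102 RPKM, and the ranges of the last 3 overlapped. Krt15 was at 1019 ± 457, Krt77 at 19.7 ± 0.432 and Krt2 at 0.0496 ± 0.0408 RPKM. The sets differ in sorting, preparation and library kit, so these RPKM values are set side by side as levels and no difference between sets was tested.

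**Figure D1:**
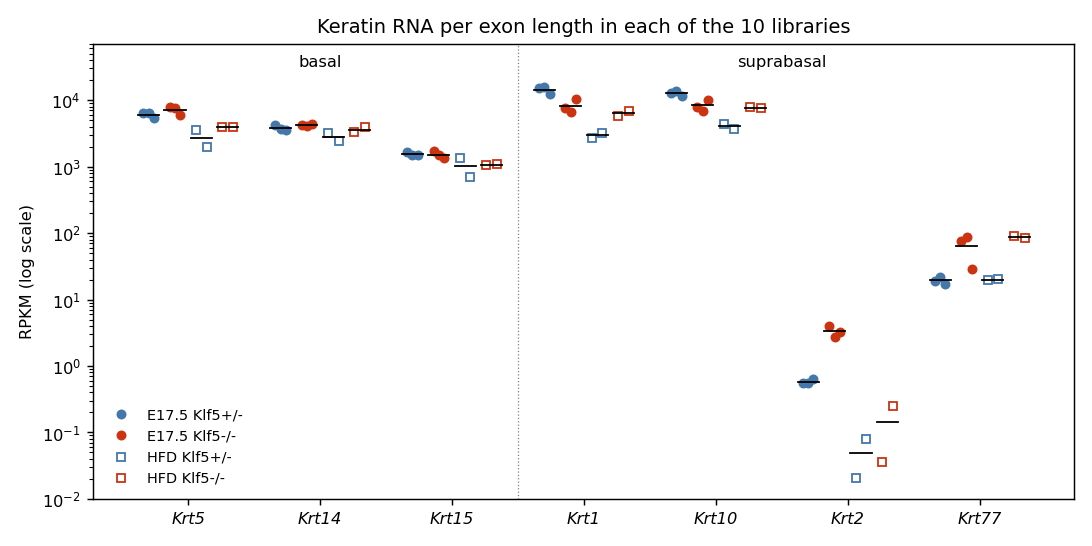
RPKM of the 7 keratins (log axis) in each of the 10 libraries, with Klf5+/- and Klf5-/- libraries marked apart in the E17.5 and HFD sets and a bar at each group mean. Krt1 and Krt10 lie lower in Klf5-/- at E17.5 and higher in Klf5-/- in the HFD set, while Krt77 lies higher in Klf5-/- in both.

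At E17.5 the comparison asks how the epithelium labelled Klf5-/- differs from the heterozygous one. The spinous pair was lower and the minor type II chains were higher in Klf5-/-, but of the 7 keratins only Krt2 passed the threshold of an adjusted p of 0.05 over all genes. That 1 of 7 stands against 0.0861% of the 15092 genes tested (13 genes), and the 5 of them that were higher are 0.0331%. The groups did not overlap for 4 of 7 keratins (Krt1, Krt10, Krt2 and Krt77), against 14.8% of all genes tested. Klf5-/- was the higher group for Krt2 and Krt77 (6.63% of genes) and the lower one for Krt1 and Krt10 (8.18%).

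Krt1 took 3.69, 3.79 and 3.06% of all counts on genes in Klf5+/- replicates 1 to 3, and 1.84, 1.61 and 2.55% in the libraries labelled Klf5-/-. Every Klf5-/- library lay under every Klf5+/- one, and replicate 3 of Klf5-/- lay closest to the heterozygous range. In CPM the means were 35990 ± 4386 and 19660 ± 5386 (SD, n = 3 each), a log2 fold change of −0.87 (SE 0.19), which did not pass the test (edgeR adjusted p = 0.119).

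Krt10, its type I partner, took 2.69, 2.90 and 2.37% of counts in Klf5+/- and 1.67, 1.44 and 2.12% in Klf5-/-. The pattern over libraries was that of Krt1, with Klf5-/- replicate 3 again highest of its group and no overlap. The means of 27199 ± 3175 and 17125 ± 3910 CPM (n = 3 each) gave a log2 fold change of −0.67 (SE 0.17, edgeR adjusted p = 0.163).

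Leaving out Klf5-/- replicate 3 brought both past the threshold, with Krt1 at a log2 fold change of −1.11 (edgeR adjusted p = 0.00378) and Krt10 at −0.86 (edgeR adjusted p = 0.0140), while over the removals of each library in turn the adjusted p ran up to 0.528 and 0.666. DESeq2, run on the same counts, called both (adjusted p = 3.96e-05 for Krt1 and 0.00133 for Krt10), and over the 8 settings that kept all libraries the adjusted p ran up to 0.218 and 0.284.

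Krt2 was close to silent in the sorted epithelium. Its counts were 66, 50 and 68 in Klf5+/-, and 357, 273 and 321 in Klf5-/-. All 3 Klf5-/- libraries were far above the heterozygous ones and close to each other. Krt2 rose from 1.53 ± 0.125 to 8.47 ± 1.73 CPM (n = 3 each), 5.53-fold, with a log2 fold change of 2.46 (SE 0.22, edgeR adjusted p = 0.00779). Without Klf5-/- replicate 1 its log2 fold change stayed near that size but the adjusted p was 0.104, the highest over the removals of 1 library. In 1 fit of all 10 libraries the edgeR adjusted p was 0.160, the highest over the settings that kept them all.

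Krt77 had 2586, 2260 and 2077 counts in Klf5+/- and 7701, 9816 and 3153 in Klf5-/-. Replicates 1 and 2 of Klf5-/- were well above the heterozygous libraries, and replicate 3 lay just above them. The means of 58.2 ± 8.71 and 181 ± 84.9 CPM (n = 3 each) gave a log2 fold change of 1.64 (SE 0.42, edgeR adjusted p = 0.263). Without replicate 3 the log2 fold change was 1.98 (edgeR adjusted p = 2.05e-05), and over the other removals of 1 library the adjusted p ran up to 0.678. DESeq2 gave an adjusted p of 0.0207, and the range over the settings that kept all libraries reached 0.460.

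The 3 basal keratins did not differ beyond the spread between E17.5 libraries. Krt5 took 1.41, 1.38 and 1.17% of counts in Klf5+/- and 1.75, 1.66 and 1.31% in Klf5-/-, with overlapping groups (log2 fold change 0.18, SE 0.14, edgeR adjusted p = 0.781). For Krt14 the shares were 0.745, 0.649 and 0.615% against 0.744, 0.704 and 0.753% (log2 fold change 0.067, SE 0.12, edgeR adjusted p = 0.932). For Krt15 they were 0.292, 0.261 and 0.262% against 0.301, 0.261 and 0.233% (log2 fold change −0.10, SE 0.12, edgeR adjusted p = 0.881). Within Klf5-/-, replicate 3 had the lowest Krt5 and Krt15 of the group and the highest Krt14, so it did not stand to one side for all basal chains as it did for the spinous pair.

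Summed, the 7 keratins held 8.84, 8.98 and 7.48% of all counts in the E17.5 Klf5+/- libraries, against 6.33, 5.70 and 6.98% in Klf5-/-. The groups did not overlap, and the whole of the gap came from the 4 suprabasal chains. Those held 6.39, 6.69 and 5.44% against 3.53, 3.08 and 4.68%, whereas the 3 basal chains held 2.45, 2.29 and 2.05% against 2.79, 2.62 and 2.30%, which overlapped. In bulk RNA, fewer spinous cells in the sort and less Krt1 and Krt10 RNA per cell cannot be told apart.

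The HFD comparison asks the same of unsorted epidermis, and there Krt1 and Krt10 ran the other way, while Krt77 was again higher in Klf5-/-. Of the 6 keratins tested, all but Krt2, Krt1 and Krt77 rose in the libraries labelled Klf5-/-. These 2 of 6 stand against 5.50% of the 15848 genes tested in either direction and 1.48% tested as higher. The groups did not overlap for 5 of those 6, all with Klf5-/- higher (Krt5, Krt14, Krt1, Krt10 and Krt77), against 60.1% of genes in either direction and 27.4% with Klf5-/- higher. With 2 libraries a group, a lack of overlap is common among all genes.

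Counts of Krt77 were 2099 and 2007 in Klf5+/-, and 8396 and 10850 in Klf5-/-. The pairs of libraries were tight and far apart. Its level rose from 53.4 ± 1.65 to 275 ± 18.2 CPM (n = 2 each), 5.15-fold (log2 fold change 2.36, SE 0.17, edgeR adjusted p = 0.0188). It was called in every alternative run, each removal of 1 library included, where the adjusted p reached 0.0443 at most.

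Krt1 took 0.667 and 0.782% of counts in Klf5+/- and 1.40 and 1.70% in Klf5-/-, with no overlap. It rose from 6713 ± 810 to 16713 ± 2119 CPM (n = 2 each), a log2 fold change of 1.32 (SE 0.27, edgeR adjusted p = 0.0499), at the threshold itself. On library totals without TMM scaling the adjusted p was 0.0581, with a filter at a mean of 1 CPM it was 0.0528, and over the removals of 1 library it ranged from 0.000264 to 0.343.

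Krt10 took 0.906 and 0.774% in Klf5+/- and 1.64 and 1.58% in Klf5-/-, again with no overlap. The means of 7775 ± 797 and 17415 ± 660 CPM (n = 2 each) gave a log2 fold change of 1.16 (SE 0.26), which just missed the threshold (edgeR adjusted p = 0.0570). With the replicate number as a block it was 0.0388, and over the 8 settings that kept all libraries it ranged from 5.22e-07 to 0.0723. On leaving out 1 library, which leaves a group with 1, the log2 fold change ran from 1.06 to 1.28.

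Krt2 was all but absent from the HFD libraries, with 2 and 7 counts in Klf5+/- and 3 and 29 in Klf5-/-. Of these 4 libraries 1, replicate 2 of Klf5-/-, stood above the rest. The gene fell under the low-count filter and was not tested, and with its Klf5+/- counts at or near the limit that a count of 0 allows (3 counts a library) no fold is given.

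Krt5 took 0.765 and 0.425% of counts in Klf5+/- and 0.850 and 0.868% in Klf5-/- (log2 fold change 0.75, SE 0.34, edgeR adjusted p = 0.211). Krt14 took 0.563 and 0.423% against 0.585 and 0.679% (log2 fold change 0.58, SE 0.26, edgeR adjusted p = 0.218). Krt15 took 0.236 and 0.122% against 0.183 and 0.195% (log2 fold change 0.30, SE 0.33, edgeR adjusted p = 0.607). For each of these basal chains replicate 2 of Klf5+/- was the lowest of the 4 libraries. Only the Krt15 groups overlapped.

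The 7 keratins together held 3.14 and 2.53% of HFD counts in Klf5+/- and 4.68 and 5.05% in Klf5-/-. Fibroblast, endothelial and adipocyte markers had negative medians in the same comparison. None of the 14 fibroblast markers had a positive log2 fold change and 2 fell (4.02% of all genes were called lower), with a median of −2.61 and a summed level of 19729 to 23580 CPM in Klf5+/- and 1467 to 5869 CPM in Klf5-/-. The 9 endothelial markers had none positive and 3 fell (median −3.16, summed level 379 to 427 against 16.7 to 76.7 CPM), and of 7 adipocyte markers 1 was positive and 4 fell (median −2.23, summed level 888 to 1371 against 207 to 330 CPM). Erythroid markers had 0 of 7 positive and 4 fell (median −1.38, summed level 899 to 945 against 323 to 416 CPM). Hair follicle markers had 6 of 14 positive and 7 fell (median −1.05, summed level 1050 to 1145 against 567 to 698 CPM). Immune markers were split, with 5 of 10 positive and 2 that fell (median −0.089, summed level 219 to 225 against 115 to 181 CPM). Melanocyte markers had 2 of 9 positive (median −0.18, summed level 274 to 303 against 174 to 294 CPM) and skeletal muscle markers 0 of 8 (median −1.95, summed level 868 to 3063 against 99.8 to 961 CPM), with none called in either. No list had a marker at 0 in all libraries, and the median over all genes tested was −0.0081. The part of these other cells in the higher keratin shares was not tested.

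**Figure D2:**
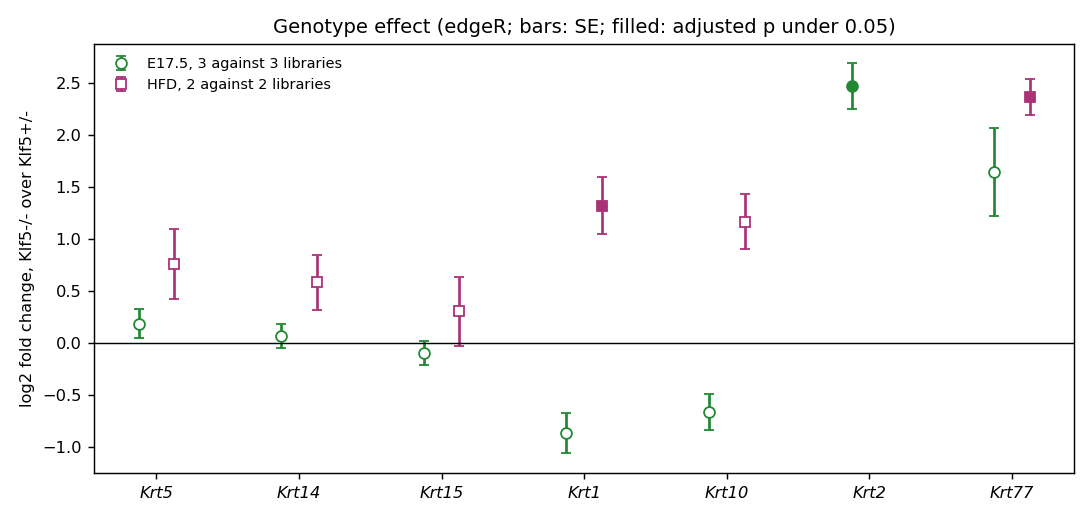
Log2 fold change of Klf5-/- over Klf5+/- for each keratin in the E17.5 and HFD sets, with bars of 1 standard error and filled symbols past the threshold (edgeR). Krt1 and Krt10 sit below 0 at E17.5 (−0.87 and −0.67) and above 0 in the HFD set (1.32 and 1.16), Krt77 sits above 0 in both, and Krt2 has a value only at E17.5.

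The genotype effects of the spinous pair differed between the sets. Sorting, preparation and library kit differ along with the set, so their parts in this difference cannot be told apart. The test also pools the spread of both sets, which need not hold for each. In 1 fit of all 10 libraries 3672 genes were called in the HFD set, against 872 when it was fitted alone. Tested as a contrast in 1 fit of all 10 libraries, the effect in the HFD set minus that at E17.5 was 2.20 on the log2 scale for Krt1 (SE 0.32, edgeR adjusted p = 0.00342) and 1.84 for Krt10 (SE 0.29, edgeR adjusted p = 0.00427). These are 2 of 7 keratins, against 14.7% of the 17260 genes tested in either direction and 7.07% tested as higher. Both held under every alternative run, with the adjusted p reaching 0.0190 for Krt1 and 0.0238 for Krt10 on leaving out 1 library.

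The difference was 0.57 for Krt5 (edgeR adjusted p = 0.277), 0.52 for Krt14 (edgeR adjusted p = 0.172) and 0.40 for Krt15 (edgeR adjusted p = 0.451). For Krt77, higher in Klf5-/- without overlap in both sets, it was 0.73 (SE 0.51, edgeR adjusted p = 0.383), and for Krt2 it was −0.64 (SE 0.97, edgeR adjusted p = 0.714). The Krt2 value rests on HFD counts of 2 to 29 a library, too few for a fold in that set. Krt77 was the only keratin of the 7 with Klf5-/- above Klf5+/- without overlap in both sets, a pattern of 1.35% of the 14106 genes tested in both. Krt1 and Krt10 were lower at E17.5 and higher in the HFD set without overlap, a pattern of 4.69% of those genes.

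Ratios between keratins within a library do not depend on library scaling or on RNA of cells that make none of these keratins. They can shift with the mix of the cells that do make them, and the HFD epidermis was not sorted. There 7 of 14 hair follicle markers fell, against 4.02% of all genes, and 6 of 14 were positive (median −1.05). The part of such cells in the ratios was not tested. Per length, the basal sum over the suprabasal sum was 0.441, 0.391 and 0.433 in E17.5 Klf5+/- libraries, against 0.893, 0.963 and 0.564 in Klf5-/-. The heterozygous libraries were close together at 0.422 ± 0.0268 (n = 3), and all 3 Klf5-/- libraries lay above them at 0.807 ± 0.213, 1.91 times as high, with replicate 3 the nearest. HFD libraries had ratios of 1.14 and 0.730 in Klf5+/- and 0.605 and 0.612 in Klf5-/-. There the Klf5-/- libraries were the lower ones, at 0.652 times the heterozygous mean, and no library overlapped. The difference of the mean log2 ratios was 0.90 at E17.5 and −0.58 in the HFD set. The HFD value rested on both heterozygous libraries, at −0.26 without Klf5+/- replicate 1 and −0.90 without replicate 2.

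The 2 filament pairs were compared chain by chain. Krt14 over Krt10, both type I, was 0.330, 0.267 and 0.310 in Klf5+/- and 0.531, 0.583 and 0.423 in Klf5-/- at E17.5, and 0.742 and 0.653 against 0.425 and 0.512 in the HFD set. The groups did not overlap in either set and ran in opposite directions. Krt5 over Krt1, both type II, was 0.426, 0.407 and 0.427 against 1.06, 1.15 and 0.575 at E17.5, with no overlap. The HFD values were 1.28 and 0.607 against 0.680 and 0.570, where the groups overlapped.

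Ratios within a filament pair were also taken. Krt1 over Krt10 was 1.18, 1.12 and 1.11 in E17.5 Klf5+/- libraries and 0.943, 0.959 and 1.03 in Klf5-/-, with no overlap. Its HFD groups overlapped. Krt5 over Krt14 overlapped between the genotypes in both sets, as did Krt15 over Krt14. All type II over all type I chains was 1.15, 1.15 and 1.10 against 1.12, 1.15 and 1.05 at E17.5, which overlapped. For HFD libraries this ratio was 0.704 and 0.759 against 0.793 and 0.878, without overlap.

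Krt77 stood apart from Krt1 although both are suprabasal type II genes and neighbours on the chromosome. Per 1000 of Krt1, Krt77 was 1.26, 1.42 and 1.36 in E17.5 Klf5+/- and 10.1, 13.2 and 2.73 in Klf5-/-. Every Klf5-/- library was above the heterozygous ones, by less in replicate 3. In the HFD set the means were 6.67 ± 0.600 and 13.9 ± 2.67 (n = 2 each), also without overlap.

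**Figure D3:**
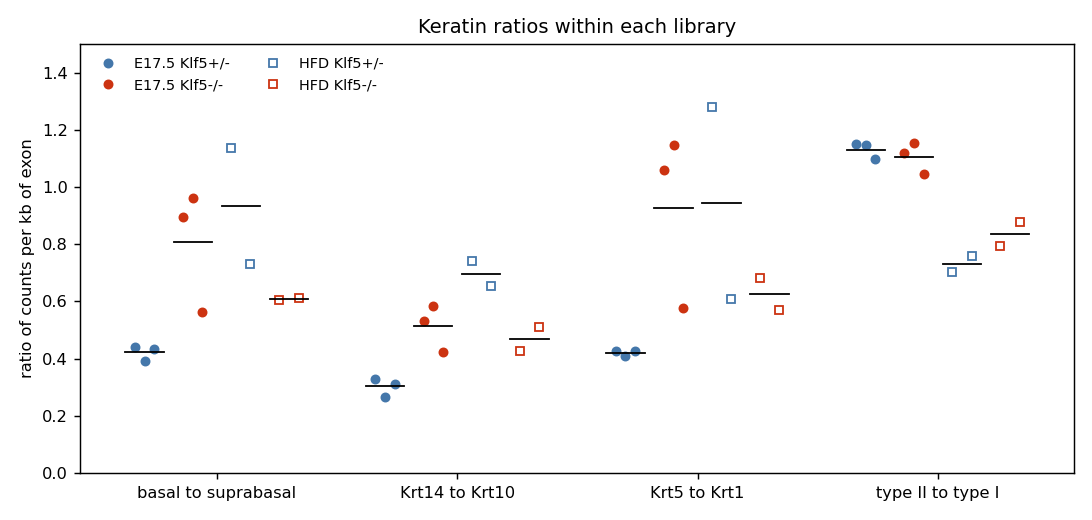
Ratios between keratins per kilobase of exon (linear axis from 0), 1 point for each of the 10 libraries, grouped by genotype and set with a bar at each mean. The basal to suprabasal ratio is higher in Klf5-/- at E17.5 (0.564 to 0.963 against 0.391 to 0.441) and lower in Klf5-/- in the HFD set (0.605 and 0.612 against 0.730 and 1.14).

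Peaks near the gene starts were read from the E17.5 chromatin lists. Within 5 kb of the gene start, the deposited lists of 18155 H3K27ac, 6472 KLF5 and 41905 ATAC peaks placed an H3K27ac peak at 3 of 7 keratins, a KLF5 peak at 4 and an ATAC peak at 5. Of the 15092 genes tested at E17.5, 63.5% have an H3K27ac peak, 22.9% a KLF5 peak and 84.4% an ATAC peak in that window. Each list comes from 1 sample, and the folds over local background and q values are the authors'.

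All 3 basal genes had a KLF5 peak, but those at Krt5 and Krt15 ranked only 6430 and 6002 of 6472 by fold. At Krt5 the KLF5 peak ran over chr15:101712737-101713067, covering the start with its summit 3 bases upstream, at a fold of 2.73 and a −log10 q of 3.78. An H3K27ac peak at chr15:101712737-101713106 covered the same bases (fold 2.49, −log10 q 5.65), and the only ATAC peak lay 4645 bases upstream. Of the Krt5 bases printed above, the 162 in capitals lie in both of these peaks, which continue downstream of the start, and both peaks are among the weaker of their lists by fold.

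Krt14 had the strongest KLF5 peak of the 7, at chr11:100208468-100209161, with its summit 1309 bases upstream, a fold of 4.67 and a −log10 q of 14.3. It ranked 451 of 6472 by q and 1352 by fold. An ATAC peak had its summit 1332 bases upstream, and of 4 H3K27ac peaks 1 covered the start (fold 2.96, −log10 q 12.7) and another ran over the KLF5 peak. Krt15 had a KLF5 peak at chr11:100135981-100136240, with its summit 145 bases upstream (fold 3.21, −log10 q 3.37), and an ATAC summit 148 bases upstream, but its nearest H3K27ac peak lay 21161 bases away.

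Of the suprabasal genes only Krt1 had a KLF5 peak within 5 kb, which ranked 6197 of 6472 by fold. That peak, chr15:101855714-101855935, had its summit 4986 bases upstream (fold 3.10, −log10 q 3.64), inside an ATAC peak whose summit was 4989 bases upstream, and a further ATAC peak covered the Krt1 start. Krt10 had 2 ATAC peaks, with summits 2825 and 4998 bases downstream of its start, and its nearest KLF5 peak was 188940 bases away. Krt2 had 1 H3K27ac peak 4461 bases upstream and neither of the others, and Krt77 had no peak of any kind, the nearest KLF5 peak being 13770 bases away.

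Krt1 and Krt10 had no H3K27ac peak within 5 kb although they were the leading messages of the E17.5 heterozygous libraries. Of 98 genes with a mean of at least 1000 CPM there, a limit chosen after the values were seen, 89.8% had such a peak, 60.2% a KLF5 peak and 98.0% an ATAC peak. The 10 without an H3K27ac peak were Krt1, Krt10 and Krt15 with Eef1a1, H19, Rpl13a, Dmkn, Pkm, Gapdh and Postn. The H3K27ac sample and the RNA libraries are different preparations. With peaks of a −log10 q of at least 10 only, 1 of 7 keratins kept each kind of peak.

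**Figure D4:**
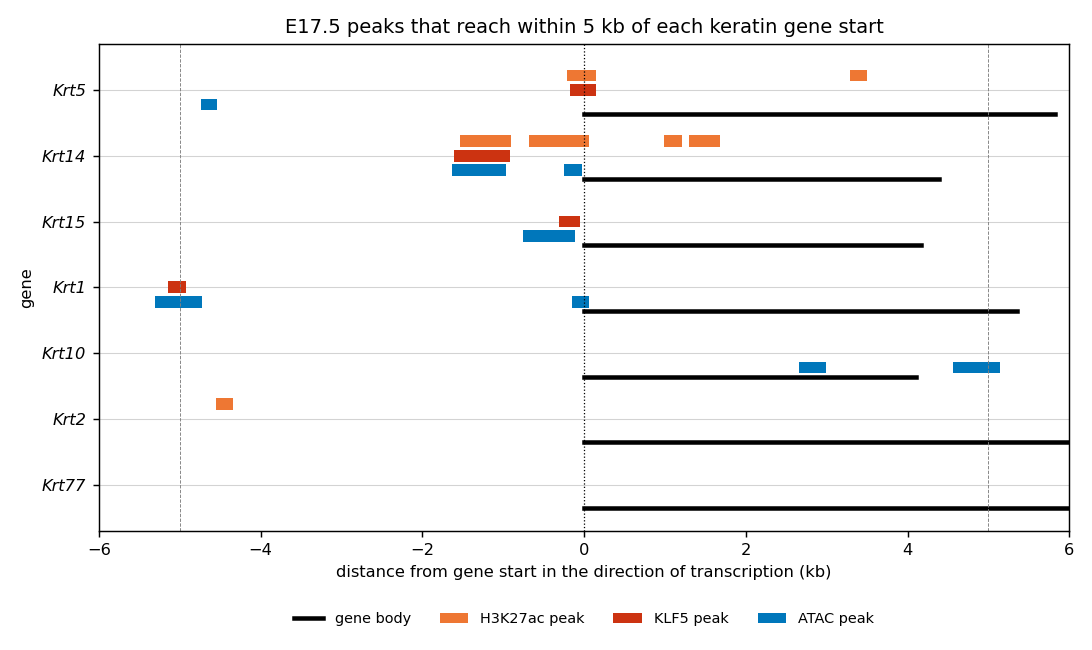
Peaks of H3K27ac, KLF5 and ATAC within 5 kb of each keratin's start, drawn to scale in kb with the start at 0, upstream to the left and the gene body as a black line. KLF5 peaks lie at Krt5, Krt14 and Krt15 and at the far upstream edge for Krt1, and none is drawn for Krt10, Krt2 and Krt77.

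Other genes of the same layers were taken from gene lists, and are set beside a median log2 fold change over all genes tested of 0.012 at E17.5. Of 15 further spinous genes 2 were positive at E17.5, with a median of −0.38, and none was called. Sbsn, a secreted protein of suprabasal cells, was at −0.56 (edgeR adjusted p = 0.0783) and Dsg1b, a desmosomal cadherin, at −0.55 (edgeR adjusted p = 0.0868). Of 15 granular genes 5 were positive with a median of −0.28, among them Asprv1, the protease that processes filaggrin, at −0.53 and Ivl, a cornified envelope precursor, at −0.54, and none was called. Of 15 basal-layer genes 12 were positive with a median of 0.092 and none called, with Igfbp2 at 0.48 and the integrin chain Itgb1 at 0.10. The medians of both lists above the basal layer had the sign of Krt1 and Krt10.

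All 15 spinous genes were positive in the HFD set (median 0.91, against −0.0081 over all genes tested), and 3 rose, Dsg1b, Grhl3 and Lypd3, where 1.48% of all genes were called higher. All 15 granular genes were positive (median 0.96), and 2 rose, Nccrp1 and Cdsn, the latter encoding corneodesmosin of cell junctions. Of 15 basal-layer genes 13 were positive, with a median of 0.37 and none called. Tested between the sets, 11 of the 15 spinous and 7 of the 15 granular genes were called with a higher effect in the HFD set, against 7.07% of all genes, and 1 of the 15 basal-layer genes was. Another basal-layer gene, Itgb1, was called with a lower effect there (difference −0.75, edgeR adjusted p = 0.0164), against 7.61% of all genes.

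Proteins that anchor or bundle keratin filaments, such as desmoplakin and plakophilins, were on no common side at E17.5, where 8 of 16 were positive, with a median of −0.024 and none called, Dsc2 being at 0.71 and Pkp1 at −0.49. Among HFD libraries 13 of 16 were positive (median 0.98), and 3 rose, Dsp, Pkp3 and Dsg2, against 1.48% of all genes. Tested between the sets, 8 of the 16 were called with a higher effect in the HFD set, against 7.07% of all genes. A lower effect was called for 2 of them, against 7.61%. Of 14 transcription factors known to act on keratin genes, 6 were positive at E17.5 (median −0.039) with none called, Cebpa being at −0.45 and Grhl3 at −0.35. All 14 were positive in the HFD set (median 0.83), and 2 rose, Grhl3 among them, against 1.48% of all genes. Between the sets 10 of the 14 were called with a higher effect in the HFD set, against 7.07% of all genes.

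Keratins of stressed and of simple epithelia were listed as well. Of 10 stress and simple-epithelium keratins 9 were positive, with a median of 1.61, and none was called at E17.5. Krt6a, a keratin of activated epidermis, was at a log2 fold change of 2.06 (edgeR adjusted p = 0.0557) and its partner Krt16 at 0.62 (edgeR adjusted p = 0.150). The HFD libraries had 8 of 10 positive (median 1.03), and 1 rose, Krt7, against 1.48% of all genes. Between the sets 2 of the 10 were called with a lower effect in the HFD set, against 7.61% of all genes, and none with a higher one. Of 13 fibroblast markers tested at E17.5, 11 were positive (median 1.03) with none called, and their summed level was 1806 to 2103 CPM in Klf5+/- and 2012 to 2134 CPM in Klf5-/-. Col6a1 was at 1.59 and Dpt, near 0 in Klf5+/-, at 5.32.

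Markers of further cell types at E17.5 had no gene called in any list. Hair follicle markers were positive for 6 of 10 tested (median 0.061, Dkk4 at 0.81 and Krt79 at −0.69), endothelial markers for 5 of 5 (median 0.88, Tek at 2.38 and Pecam1 at 0.85) and adipocyte markers for 4 of 4 (median 1.31, Pparg at 2.12 and Fabp4 at 2.77). Immune markers were positive for 7 of 8 (median 0.29, Cd3g at 0.95 and Cd74 at 0.58), melanocyte markers for 8 of 9 (median 0.19, Mitf at 0.27 and Tyr at 0.21), erythroid markers for 8 of 8 (median 1.49, Hbb-y at 1.82 and Hba-a1 at 1.90) and skeletal muscle markers for 1 of 4 (median −0.20, Ttn at −0.59 and Tnni2 at −0.28). In Klf5+/-, Tek averaged 0.064 CPM, about the level of 3 counts, with Hbb-y at 0.13 and Pparg at 0.36 CPM. Their log2 fold changes therefore rest on few counts. Summed levels in Klf5+/- and Klf5-/- were 2.91 to 4.52 and 6.08 to 6.51 CPM for the endothelial list, 7.72 to 10.6 and 11.7 to 31.7 CPM for the adipocyte list, and 25.6 to 51.0 and 31.9 to 59.1 CPM for the immune list. They were 458 to 494 and 509 to 547 CPM for melanocyte, 378 to 587 and 426 to 444 CPM for hair follicle and 6.85 to 8.42 and 5.82 to 8.20 CPM for skeletal muscle markers. The erythroid sum varied most between libraries, at 15.8 to 1124 CPM in Klf5+/- and 267 to 2736 CPM in Klf5-/-. The part of these cells in the E17.5 keratin values was not tested.

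A few genes followed a keratin closely over the 10 libraries. Likeness was the root mean square difference of log2 CPM (0.5 CPM added), each gene centred on its mean within each set, among 8314 genes with a mean of at least 10 CPM in both sets. Nearest to Krt1 were Tdh at 0.0733, Sult2b1 at 0.100, Dgat2 at 0.107 and Il1rn at 0.117, where Krt1 itself varied by 0.58. Nearest to Krt5, which varied by 0.343, were Klrg2 at 0.0900, Bmp2 at 0.0952, Bace2 at 0.114 and Impa2 at 0.126. No likeness is given for Krt2, whose HFD counts are at or near the floor.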

How the data were processed

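RNA was measured in 10 mouse libraries and chromatin in 3 E17.5 samples. The authors deposited raw counts per Ensembl gene, for which the submitters' processing notes name STAR 2.6.0b, HTSeq and mm10 (GRCm38). How the counting treated strand is not stated in any source used here. The HFD files hold RPKM values that the authors deposited. These equal counts over exon length and all reads of the file within a relative deviation of 7.59e-14. The RPKM values given here were instead computed, for both sets, from counts, exon length and all counts on genes. The same notes list MACS2, Bowtie 1.0.1 and Bowtie2 2.2.3, and each peak list belongs to 1 sample. The deposited lists give a fold (a ratio over local background), −log10 q values and an integer score that was not used. The sources used here give neither the control nor the threshold of the peak calling.

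Reads that name no gene (13.4 to 16.9%) stayed out of library sizes and tests. The 2 sets were fitted separately (edgeR 4.0.16, R 4.3.3, TMM scaling, filterByExpr, robust quasi-likelihood, Benjamini-Hochberg adjustment over all genes, threshold 0.05). The difference between the sets was a contrast in 1 fit of all 10 libraries. The SE is the log2 fold change divided by the square root of F. CPM values are TMM-scaled within a set. Ratios are of counts per kb and carry no test. A peak counted if at least 1 base lay within 5 kb of the gene start in the count files. Promoters of Krt1 and Krt15 were not used here, and for Krt14 the table's start lies 1518 bases downstream of the files' start. The 7 members, the gene lists and the ratios were chosen with earlier results of these data known, and list medians are descriptions. All 7 keratins are named throughout. From each list the 2 genes with the smallest unadjusted p at E17.5 and those called in the HFD set were the candidates for naming, of which some are given, the latter named after their values were seen. For Krt1 and Krt5 the 4 nearest genes are named, and for Krt2 the planned list is left out because its HFD counts are too low. On simulated E17.5 data with 100 genes changed at each size among 15092, the test recovered 84 at 2-fold and 98 at 4-fold. On simulated HFD data over 15848 genes it recovered 14 and 83, and for the difference between sets over 17260 genes 14 and 79. Every simulated gene was given the same dispersion, the median over genes, and no library deviated as a whole. These counts therefore do not measure recovery in the real libraries. Alternatives were DESeq2 1.42.0, other scalings and filters, a replicate block, leaving out each library, and other peak windows and thresholds.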

Additional observations from a re-analysis of the deposited data

Results flagged for a closer look

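The genotype effects of 2 keratins differed between the sets in a test of the difference itself. This difference was 2.20 on the log2 scale for Krt1 (edgeR adjusted p = 0.00342) and 1.84 for Krt10 (edgeR adjusted p = 0.00427). All 3 Klf5-/- libraries were lower at E17.5 and both were higher in the HFD set.

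The following 4 pairs of values moved in opposite directions in the 2 sets in every library, and these differences were not tested. They largely restate the turn of Krt1 and Krt10, which make up nearly all of the suprabasal counts. Krt10 enters each of the 4, and Krt1 enters all but Krt14 over Krt10. The basal to suprabasal ratio of Klf5-/- over Klf5+/- was 1.91 at E17.5 and 0.652 in the HFD set, and for Krt14 over Krt10 it was 1.70 and 0.672. The share of counts held by the 7 keratins was 0.751 times that of Klf5+/- at E17.5 and 1.71 times in the HFD set, and for the 4 suprabasal chains these values were 0.610 and 2.03. The HFD log2 difference of the basal to suprabasal ratio, −0.58, was −0.26 without Klf5+/- replicate 1. The summed fibroblast markers of the HFD set, 19729 to 23580 CPM in Klf5+/- and 1467 to 5869 CPM in Klf5-/-, moved with the shares, and their part was not tested.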

How the results depend on the processing

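With 3 or 2 libraries a group, counts of calls hung on single libraries and on the tool. At E17.5, 13 genes were called, but 447 by DESeq2, 237 without a low-count filter, 42 with the replicate block, 6 on library totals, 3 in the fit of all 10 libraries and 2 at a mean of 1 CPM. Leaving out 1 library gave 0 to 513, with 0 without Klf5-/- replicate 1 (1003 genes then had an unadjusted p under 0.05 in edgeR) and 513 without Klf5-/- replicate 3. Of the 7 keratins 1 was called, but 4 by DESeq2, 3 without the filter, 0 in the fit of all 10 libraries, and 0 to 4 on leaving out 1 library. In the HFD set 872 genes were called, but 2884 by DESeq2, 1340 on library totals, 2396 without the filter, 3672 in the fit of all 10 libraries, 1520 with the replicate block, and 19 without Klf5+/- replicate 2 to 5389 without Klf5-/- replicate 1. There 2 keratins were called, but 1 on library totals, 1 at a mean of 1 CPM, 4 in the fit of all 10 libraries, and 1 to 3 on leaving out 1 library. The difference between the sets was called for 2534 genes, and for 1266 to 4467 on leaving out 1 library, with 2 to 4 keratins (4 without HFD Klf5+/- replicate 1, where Krt5 had an edgeR adjusted p of 0.0487 and Krt15 of 0.0392). The cause of these changes was not tested.

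On library totals the median of all genes shifted to 0.077 at E17.5, −0.23 in the HFD set and −0.31 for their difference, and the share of calls that were higher moved from 38.5 to 66.7%, from 26.9 to 10.3% and from 48.2 to 18.7%. Same-numbered E17.5 libraries deviated with correlations of 0.026, −0.102 and 0.176, and E17.5 Klf5+/- replicate 1 correlated best with another number. The 2 HFD pairs share 1 correlation, 0.185, because with 2 libraries a group both pairs must give the same value. The numbers were not taken to pair the samples. The block called 1 keratin at E17.5, 3 in the HFD set and 2 for the difference. Signs turned for 3 keratin effects and 2 ratios when 1 library was left out. The HFD effect of Krt15 ranged from −0.091 (without Klf5+/- replicate 2) to 0.84, and its difference between the sets from −0.0055 (without the same library) to 0.98. That difference for Krt2 ranged from −2.64 to 0.53 without HFD Klf5+/- replicate 2, and was 0.098 without HFD Klf5-/- replicate 1. The HFD log2 difference of Krt5 over Krt1 ranged from −1.04 to 0.036 (without Klf5+/- replicate 1). That of Krt1 over Krt10 ranged from −0.079 (without Klf5+/- replicate 1) to 0.38, and was −0.020 without Klf5-/- replicate 2. On leaving out 1 library the basal to suprabasal log2 difference ran from 0.75 to 1.14 at E17.5, and for HFD libraries from −0.90 to −0.26. At a −log10 q of at least 10, 1 keratin each had an H3K27ac, a KLF5 and an ATAC peak, and 3 had an ATAC peak within 2 kb. With RefSeq gene starts, an alternative added after seeing the data, 4 had an ATAC peak. Of 323 values for single keratins and ratios of 2 keratins under an alternative, 293 were classed as the same. For a keratin effect this means the same direction and side of the threshold. For a ratio, which has no test, it means the same direction and a shift under the pooled SD. Leaving out 1 library cannot shift a mean log2 ratio by more than that SD, so only a turned sign could change the class. For a ratio of 2 keratins, raw counts must give the same log2 difference as counts per kb, so that setting could change nothing. Of 113 values for counts of calls, the basal to suprabasal ratio, shares and peaks, 70 were classed as the same, 26 as weaker and 17 as stronger. For counts the class was wide, so that 3564 genes called by DESeq2 for the difference between the sets, against 2534, counted as the same. Depth limited Krt2 in the HFD set, with 2 to 29 counts a library.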
